A study of Mus musculus with 15 samples.

Results

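The potassium channel genes of bone marrow-derived macrophages (BMDMs) described here are Kcnn4, Kcna3, Kcnj2, Kcnk6, Kcnk13, Kcnab2 and Kcnh7, 7 of the 51763 genes in the count table, taken by name. Kcnh7 was chosen by its normalized counts, which had been seen to be highest after dsHMGB1, so its values are a description and carry no test. The other 6 were listed with earlier results of these data known. RNA was sequenced from 15 libraries of BMDMs, 3 for each of 5 conditions, after 24 h. The cells received PBS, frHMGB1 (the fully reduced form of the nuclear protein HMGB1), dsHMGB1 (its disulphide form), LPS, or LPS together with IFNγ (LPS/IFNγ). Both HMGB1 forms were given at 5 µg/mL, LPS alone at 1 µg/mL and IFNγ at 20 ng/mL. The LPS dose in LPS/IFNγ is 1 µg/mL in the treatment field of the labels and 0.1 µg/mL in their protocol text. The donors were wild-type female C57BL/6NTac mice of 8–10 weeks whose marrow cells were grown in M-CSF and pooled before seeding. The 3 libraries of a condition are therefore technical replicates, and p-values measure the spread between wells of 1 pool of cells.

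Potassium channels let potassium leave the cell along its gradient and thereby set the membrane potential, which in macrophages steers calcium entry, cell volume, migration and cytokine release. Potassium efflux is also a trigger of the NLRP3 inflammasome. Inward rectifiers and tandem-pore leak channels hold the resting potential, whereas voltage-gated and calcium-activated channels open when the cell is depolarised or its calcium rises, and β-subunits ride on voltage-gated pores and alter their gating and surface delivery.

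The deposited table held 40934540 to 80925478 counts per library. PBS replicate 3 stood apart: its log-scaled expression correlated with the other PBS libraries at Pearson r = 0.939 and 0.934 across genes, against 0.987 to 0.993 for the remaining replicate pairs, and processed pseudogenes took 1.49% of its counts against 0.805% and 0.816% in the other PBS libraries. Values without that library stand beside the comparisons of these genes with PBS. Summed CPM (counts scaled to library size) of 7 macrophage markers lay between 13100 and 27000 in every library. Of 6 T cell markers, Cd3d, Cd3e, Cd3g and Cd8a had 0 counts and Trac had 4 counts in all, and the summed 13.5 to 35.4 CPM came from Cd4. The 5 B cell markers summed to 38.1–41.4 CPM in PBS and 5.77–7.41 CPM in LPS, nearly all of it Ighm, while Ms4a1 stayed at or below 0.0375 CPM. The 3 endothelial markers summed to 11.7–30.8 CPM in PBS and 98.9–104 CPM in LPS/IFNγ, carried by Kdr. The 5 fibroblast markers summed to 118–282 CPM and the 7 neutrophil markers to 1.97–5.47 CPM, and the mast cell and erythroid markers to at most 0.281 and 0.0356 CPM. The part of these cells in the channel values was not tested. In bulk RNA, fewer cells of a type and less RNA per cell cannot be told apart.

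All 7 genes passed the filter on low counts, which left 16919 genes in the test. After frHMGB1, 0 of the 6 tested channel genes were called (edgeR quasi-likelihood test, Benjamini-Hochberg adjusted p under 0.05 over all 16919 genes). The count was also 0 at an unadjusted p under 0.05 and 0 by DESeq2. Of all tested genes, 1.31% were called higher and 5.69% lower there. After dsHMGB1, Kcnn4 and Kcna3 rose and Kcnj2, Kcnk13 and Kcnab2 fell, against a background of 23.3% of genes called higher and 24.2% called lower. LPS and LPS/IFNγ each gave 2 higher and 4 lower of the 6, with 26.7% and 29.0% of all genes called higher and 36.2% and 31.2% called lower. Without PBS replicate 3, 1 gene was called higher after frHMGB1 (Kcnn4). After dsHMGB1, 2 were then higher and 4 lower, with Kcnk6 added, and the LPS and LPS/IFNγ counts stayed the same. The median log2 fold change over the 6 genes was -0.84 after dsHMGB1, -1.69 after LPS and -1.58 after LPS/IFNγ, beside -0.10, -0.21 and -0.12 over all genes tested. The 4 comparisons share the PBS libraries. Of the 6 genes, 0 had frHMGB1 libraries clear of the PBS libraries, 5 had dsHMGB1 libraries clear of them, 6 LPS and 5 LPS/IFNγ libraries. Of all tested genes, 20.4%, 49.9%, 62.7% and 63.2% were clear in these comparisons. Kcnk6 was the exception after dsHMGB1 and LPS/IFNγ. Libraries of dsHMGB1 and LPS were separate for 6 genes (52.9% of all tested genes), and dsHMGB1 and LPS/IFNγ for 5 (59.0%). LPS and LPS/IFNγ were separate for 6 (60.5%). The frHMGB1 libraries were separate from dsHMGB1 for 6 (70.5%), from LPS for 6 (73.0%) and from LPS/IFNγ for 6 (82.5%).

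**Figure D1:**
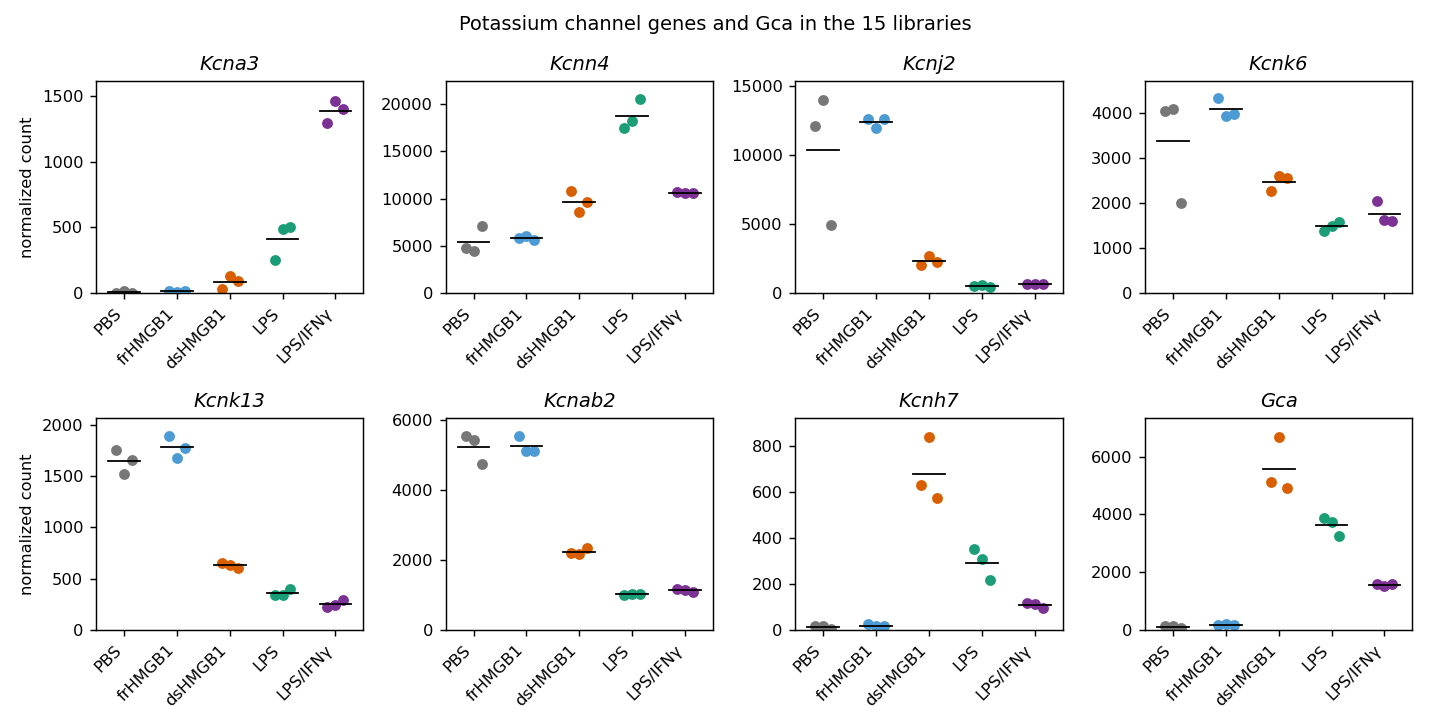
Normalized counts (y axis, linear from 0, a separate scale in each panel) of the 7 potassium channel genes and of Gca in the 15 libraries, by condition (x axis). Points are libraries in replicate order, and black lines are the means of 3. PBS replicate 3, the right-hand grey point, lies apart from the other PBS libraries for Kcnj2, Kcnk6 and Kcnn4.

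Kcnn4 encodes the intermediate-conductance calcium-activated potassium channel, which opens through bound calmodulin when cytosolic calcium rises (ENSMUSG00000054342, chr7:24370263-24386690, plus strand, GRCm38). It rose in every condition except frHMGB1, and most after LPS. Its normalized counts (counts divided by DESeq2 size factors) were 4808, 4480 and 7072 in PBS and 5816, 6006 and 5598 after frHMGB1. They were 10746, 8628 and 9667 after dsHMGB1. They reached 17472, 18166 and 20555 after LPS, and were 10653, 10566 and 10625 after LPS/IFNγ. All 9 libraries of the last 3 conditions lay above every PBS and frHMGB1 library, and the LPS libraries lay above all others. Kcnn4 rose 1.78-fold after dsHMGB1 (log2 0.83 ± 0.16 SE, adjusted p = 0.000176 by edgeR), 3.44-fold after LPS (log2 1.78 ± 0.16, adjusted p = 1.12e-07) and 1.95-fold after LPS/IFNγ (log2 0.96 ± 0.16, adjusted p = 3.36e-05). Without PBS replicate 3 the log2 values were 1.06, 2.00 and 1.18. The frHMGB1 value was 0.09 ± 0.16 (adjusted p = 0.718), but 0.33 ± 0.09 (adjusted p = 0.0117) without that library. LPS exceeded dsHMGB1 by 1.94-fold (log2 dsHMGB1 over LPS -0.95 ± 0.16, adjusted p = 0.00024), and LPS/IFNγ stood below LPS (log2 -0.82 ± 0.16, adjusted p = 0.000651). The dsHMGB1 and LPS/IFNγ libraries overlapped (log2 -0.13 ± 0.16, adjusted p = 0.566).

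Kcna3 encodes a voltage-gated pore subunit of the Shaker family, best known from T lymphocytes, where it sustains calcium signalling (ENSMUSG00000047959, chr3:107036169-107038070, plus strand, annotated as 1 exon). It was close to undetected at rest and highest after LPS/IFNγ. Normalized counts were 3.88, 13.9 and 0 in PBS, from 6, 22 and 0 reads, and 16.0, 10.2 and 16.2 after frHMGB1. After dsHMGB1 they were 33.8, 128 and 94.2, and after LPS 252, 484 and 501. After LPS/IFNγ they were 1295, 1462 and 1396. The libraries of neighbouring conditions in the order LPS/IFNγ, LPS, dsHMGB1, frHMGB1 did not overlap, whereas frHMGB1 and PBS overlapped. Of all tested genes, 60.5%, 52.9% and 70.5% did not overlap in these neighbouring pairs, in that order. Against PBS, Kcna3 rose by log2 3.73 ± 0.59 after dsHMGB1 (adjusted p = 0.000361, edgeR), 6.01 ± 0.59 after LPS (adjusted p = 3.36e-06) and 7.75 ± 0.59 after LPS/IFNγ (adjusted p = 3.19e-07). These values were 3.26, 5.53 and 7.27 without PBS replicate 3, the library at 0, and 5.17, 7.45 and 9.19 without PBS replicate 2, which held 22 of the PBS reads, so the size of the folds over PBS rests on few reads. The frHMGB1 value was 1.14 ± 0.63 (adjusted p = 0.537) and ran from 0.67 without PBS replicate 3 to 2.58 without PBS replicate 2. LPS/IFNγ exceeded LPS 3.36-fold (log2 1.75 ± 0.51, adjusted p = 0.0135), a call that was lost without LPS replicate 1 (log2 1.48, adjusted p = 0.0773). LPS in turn exceeded dsHMGB1 4.83-fold (log2 dsHMGB1 over LPS -2.27 ± 0.52, adjusted p = 0.00489), and LPS/IFNγ exceeded dsHMGB1 16.22-fold (log2 dsHMGB1 over LPS/IFNγ -4.02 ± 0.52, adjusted p = 5.33e-05).

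The 250 bases upstream of the Kcna3 start (RefSeq, GRCm38.p6, chr3:107035912-107036161.0, plus strand) are shown because this gene had the largest increase of the 6 tested, and capitals mark the letters GAGGAA or their complement, the core bound by the macrophage factor PU.1:
Kcna3: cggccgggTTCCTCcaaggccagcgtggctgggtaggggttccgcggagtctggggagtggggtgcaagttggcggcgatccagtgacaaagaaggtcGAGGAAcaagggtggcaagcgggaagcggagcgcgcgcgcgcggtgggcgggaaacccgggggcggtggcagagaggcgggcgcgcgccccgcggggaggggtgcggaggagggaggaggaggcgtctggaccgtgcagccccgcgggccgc

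Kcnj2 encodes the strong inward rectifier that dominates the resting potassium conductance of many cells (ENSMUSG00000041695, chr11:111066164-111076821, plus strand). It fell in the same 3 conditions. Normalized counts were 12146, 13969 and 4941 in PBS and 12595, 11949 and 12658 after frHMGB1. They were 2061, 2671 and 2230 after dsHMGB1. They were 536, 572 and 468 after LPS and 647, 688 and 631 after LPS/IFNγ. PBS replicate 3 held less than the other PBS libraries and still lay above every dsHMGB1, LPS and LPS/IFNγ library. Kcnj2 fell 4.46-fold after dsHMGB1 (log2 -2.16 ± 0.29, adjusted p = 3.76e-05, edgeR), 19.7-fold after LPS (log2 -4.30 ± 0.29, adjusted p = 6.35e-08) and 15.8-fold after LPS/IFNγ (log2 -3.98 ± 0.29, adjusted p = 1.14e-07). Without PBS replicate 3 the log2 values were -2.49, -4.64 and -4.33. The frHMGB1 value changed sign between these fits, from 0.26 ± 0.29 (adjusted p = 0.711) to -0.07 ± 0.10 (adjusted p = 0.631). dsHMGB1 left 4.42 times the Kcnj2 level of LPS (log2 2.14 ± 0.29, adjusted p = 0.000123) and 3.54 times that of LPS/IFNγ (log2 1.82 ± 0.29, adjusted p = 0.000269). LPS/IFNγ and LPS did not overlap, at log2 0.32 ± 0.29 (adjusted p = 0.426, and 0.00502 when only these 6 libraries were fitted).

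Kcnk6 and Kcnk13 encode tandem-pore channels, which carry background potassium current. The product of Kcnk6 is known for the potassium efflux that follows extracellular ATP in macrophages, and that of Kcnk13 for the resting potential and surveillance of microglia. Kcnk6 (ENSMUSG00000046410, chr7:29221926-29232515, minus strand) had normalized counts of 4047, 4080 and 2001 in PBS and 4334, 3919 and 3984 after frHMGB1. They were 2272, 2601 and 2550 after dsHMGB1. They were 1388, 1483 and 1582 after LPS and 2038, 1626 and 1599 after LPS/IFNγ. PBS replicate 3 lay within the range of the LPS/IFNγ libraries and below all dsHMGB1 libraries, whereas the other PBS libraries lay above both conditions. Kcnk6 fell after LPS (log2 -1.19 ± 0.23, adjusted p = 0.000301, edgeR) and LPS/IFNγ (log2 -0.95 ± 0.23, adjusted p = 0.00192), with values of -1.46 and -1.22 without PBS replicate 3. After dsHMGB1 the value was log2 -0.45 ± 0.23 (adjusted p = 0.0994), and without PBS replicate 3 it was -0.72 ± 0.10 (adjusted p = 1.27e-06). Against frHMGB1, dsHMGB1 was lower (log2 -0.72 ± 0.23, adjusted p = 0.0136, and 0.0514 without dsHMGB1 replicate 1). Kcnk6 was higher after dsHMGB1 than after LPS (log2 0.74 ± 0.23, adjusted p = 0.0194), a call lost when any 1 LPS library, dsHMGB1 replicate 2 or dsHMGB1 replicate 3 was left out (log2 0.69 to 0.78, adjusted p = 0.0548 to 0.0815).

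Kcnk13 (ENSMUSG00000045404, chr12:99964499-100062682, plus strand) held steadier between replicates. Its normalized counts were 1759, 1525 and 1656 in PBS and 1888, 1680 and 1777 after frHMGB1. They were 655, 634 and 604 after dsHMGB1. They were 337, 344 and 396 after LPS and 224, 243 and 288 after LPS/IFNγ. The libraries of PBS, dsHMGB1, LPS and LPS/IFNγ formed separate ranges in that order. Of all tested genes, 49.9%, 52.9% and 60.5% had separate ranges in these neighbouring pairs. Kcnk13 fell 2.61-fold after dsHMGB1 (log2 -1.38 ± 0.11, adjusted p = 3.14e-07, edgeR), 4.59-fold after LPS (log2 -2.20 ± 0.11, adjusted p = 1.93e-09) and 6.53-fold after LPS/IFNγ (log2 -2.71 ± 0.11, adjusted p = 3.09e-10). Without PBS replicate 3 the values were the same to 2 decimals. LPS/IFNγ stood below LPS (log2 -0.51 ± 0.12, adjusted p = 0.00877). It was the one gene of those that fell to be lowest after LPS/IFNγ.

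Kcnab2 encodes a cytoplasmic β-subunit of voltage-gated channels with an aldo-keto reductase fold (ENSMUSG00000028931, chr4:152390742-152477871, minus strand). The gene shares 125 exon bases with the same-strand transcript Gm16334. Normalized counts were 5554, 5435 and 4743 in PBS and 5558, 5128 and 5135 after frHMGB1. They were 2190, 2158 and 2330 after dsHMGB1. They were 999, 1034 and 1031 after LPS and 1173, 1139 and 1081 after LPS/IFNγ. Kcnab2 fell 2.36-fold after dsHMGB1 (log2 -1.24 ± 0.08, adjusted p = 1.69e-07, edgeR), 5.14-fold after LPS (log2 -2.36 ± 0.08, adjusted p = 1.72e-10) and 4.64-fold after LPS/IFNγ (log2 -2.21 ± 0.08, adjusted p = 3.3e-10). Without PBS replicate 3 these were -1.31, -2.44 and -2.29. It thus fell while Kcna3, the voltage-gated pore gene among the 6, rose. LPS/IFNγ and LPS did not overlap but the difference was not called (log2 0.15 ± 0.09, adjusted p = 0.200).

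**Figure D2:**
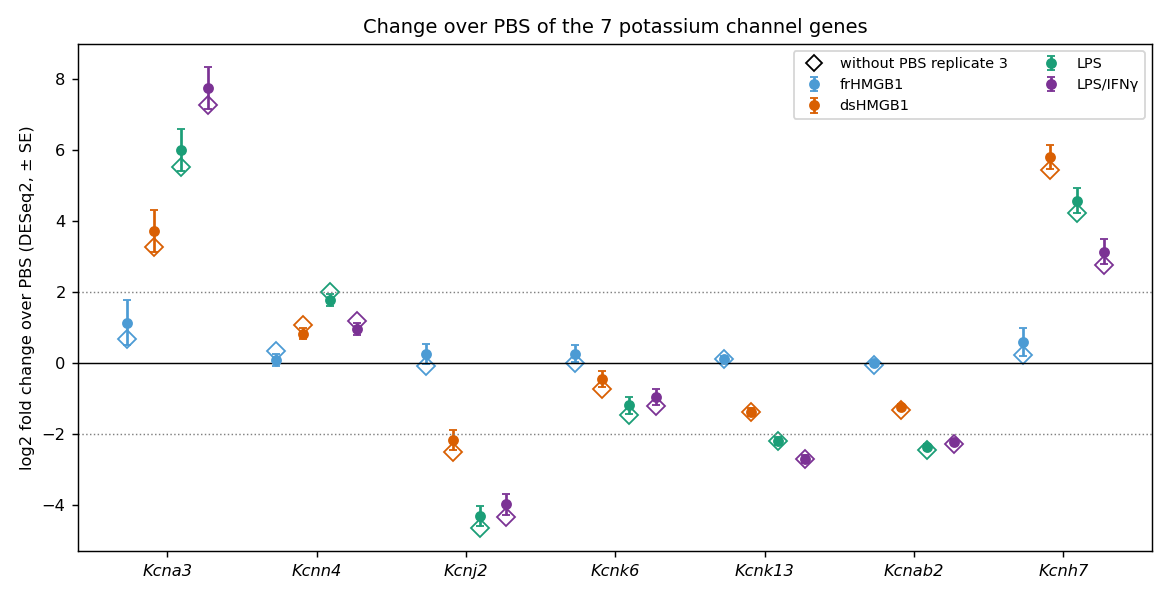
Log2 fold change over PBS (y axis; points with ± SE bars, 3 libraries a condition) of the 7 genes (x axis), coloured by condition, with open diamonds for the same value without PBS replicate 3. Kcna3 and Kcnh7 show the highest values and Kcnj2 the lowest, frHMGB1 stays near 0 for Kcnn4, Kcnk13 and Kcnab2, and dotted lines mark log2 values of 2 and -2.

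For the 6 tested genes, the dsHMGB1 mean lay between the means of PBS and frHMGB1 and those of LPS and LPS/IFNγ. Against LPS, 4 of the 6 tested genes were higher after dsHMGB1 (Kcnj2, Kcnk6, Kcnk13 and Kcnab2) and 2 lower (Kcnn4 and Kcna3), where 15.8% of all genes were called higher and 10.6% lower. Kcnk13 exceeded its LPS level 1.76-fold (log2 0.82 ± 0.12, adjusted p = 0.000112, edgeR) and Kcnab2 2.18-fold (log2 1.12 ± 0.08, adjusted p = 1.99e-06). Against LPS/IFNγ, 3 were higher and 1 lower, beside 16.5% and 16.7% of all genes. Kcnk13 was 2.50-fold higher (log2 1.32 ± 0.12, adjusted p = 1.28e-06) and Kcnab2 1.97-fold higher (log2 0.98 ± 0.08, adjusted p = 3.6e-06), while Kcnk6 was not called (log2 0.50 ± 0.23, adjusted p = 0.1). Between LPS/IFNγ and LPS, 1 was higher and 2 lower, beside 16.3% and 9.36%. Against frHMGB1, dsHMGB1 gave 2 higher and 4 lower, beside 27.7% and 23.1%.

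To set the pore-forming genes side by side, normalized counts were divided by exon length in kilobases. Kcnh7 was left out because of the gene it overlaps, described below. The 5 genes then summed to 4313 ± 880 (SD, n = 3) per kb in PBS, 4976 ± 127 after frHMGB1, 3163 ± 90.2 after dsHMGB1, 4448 ± 398 after LPS and 3427 ± 20.3 after LPS/IFNγ. Kcnj2 held 42.3% ± 13.1 (SD, n = 3) of that sum in PBS, 45.8% ± 0.960 after frHMGB1, 13.5% ± 2.21 after dsHMGB1, 2.19% ± 0.372 after LPS and 3.51% ± 0.152 after LPS/IFNγ. The share of Kcnn4 was 26.5% ± 13.3 in PBS, 22.8% ± 1.16 after frHMGB1, 59.8% ± 4.84 after dsHMGB1, 82.3% ± 1.21 after LPS and 60.6% ± 0.404 after LPS/IFNγ. PBS replicate 3 set the ends of the PBS ranges, with 27.5% for Kcnj2 and 41.8% for Kcnn4. Kcnk6 held 18.4% ± 3.33 in PBS, 19.7% ± 0.600 after frHMGB1, 18.9% ± 1.85 after dsHMGB1, 8.05% ± 0.203 after LPS and 12.3% ± 1.67 after LPS/IFNγ. The share of Kcnk13 was 12.7% ± 3.13 in PBS, 11.5% ± 0.380 after frHMGB1, 6.41% ± 0.241 after dsHMGB1, 2.59% ± 0.0652 after LPS and 2.36% ± 0.323 after LPS/IFNγ. Kcna3 held 0.0638% ± 0.0762 in PBS, 0.149% ± 0.0334 after frHMGB1, 1.43% ± 0.827 after dsHMGB1, 4.82% ± 1.38 after LPS and 21.2% ± 1.35 after LPS/IFNγ. Kcnj2 thus held the largest share in 2 of the 3 PBS libraries and Kcnn4 in PBS replicate 3, whereas Kcnn4 held the largest mean share after dsHMGB1, LPS and LPS/IFNγ. The shares are fractions of 1 sum and move against each other.

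**Figure D3:**
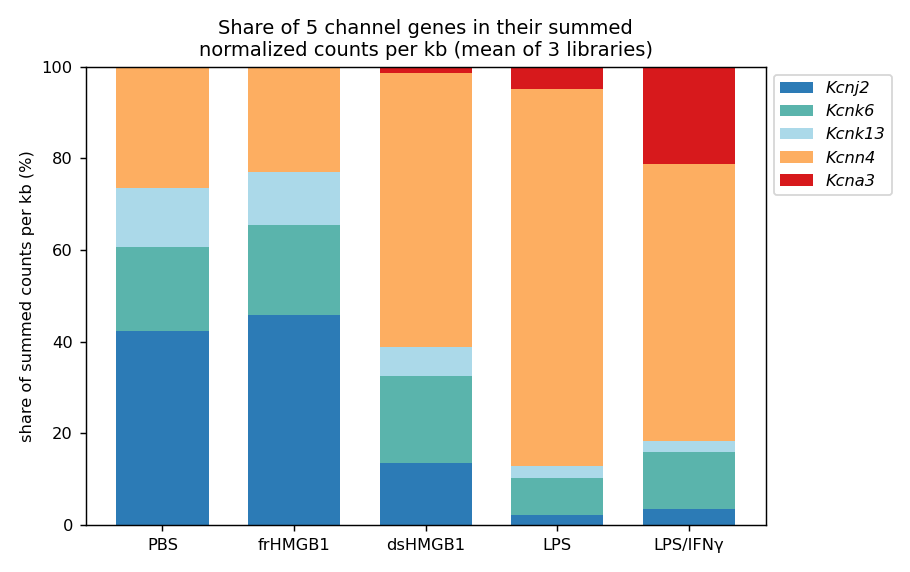
Share (y axis, percent, from 0) of 5 pore-forming genes in their summed normalized counts per kb of exon, as the mean of 3 libraries for each condition (x axis). Kcnj2 shrinks from 42.3% in PBS to 2.19% after LPS, and Kcnn4 grows from 26.5% to 82.3%.

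Kcnj2 and Kcnk13 both fell, and both upstream windows carry the letters searched for above; they are shown for that reason. For Kcnj2 the window is chr11:111065914-111066163.0 and for Kcnk13 chr12:99964249-99964498.0, both on the plus strand of GRCm38.p6 (RefSeq), with GAGGAA or its complement in capitals:
Kcnj2: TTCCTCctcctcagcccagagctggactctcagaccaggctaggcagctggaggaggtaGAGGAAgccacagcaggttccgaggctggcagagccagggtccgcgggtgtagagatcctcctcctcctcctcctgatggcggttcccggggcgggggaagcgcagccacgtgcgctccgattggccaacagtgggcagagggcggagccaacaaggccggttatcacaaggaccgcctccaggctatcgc
Kcnk13: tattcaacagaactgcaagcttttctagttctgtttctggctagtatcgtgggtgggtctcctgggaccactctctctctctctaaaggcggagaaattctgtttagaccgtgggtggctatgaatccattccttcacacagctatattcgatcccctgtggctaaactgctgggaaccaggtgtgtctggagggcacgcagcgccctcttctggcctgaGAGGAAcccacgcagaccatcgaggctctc

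RefSeq windows matched 6 of the 7 genes. GAGGAA, on either strand, stood in the windows of Kcnh7, Kcna3, Kcnj2 and Kcnk13 and in neither that of Kcnn4 nor the 3 of Kcnab2, where 23.3% of 32851 windows of the same length hold it. The letters TGANTCA (AP-1) and TTCNNNGAA (interferon-gamma activated site) were in none of these windows, and 6.75% and 7.02% of all windows hold them. Matches are descriptions of letters and not binding sites.

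Kcnh7 encodes a voltage-gated channel of the ether-à-go-go related family, whose members repolarise excitable cells (ENSMUSG00000059742, chr2:62693414-63184287, minus strand). Its normalized counts were 15.5, 15.8 and 2.34 in PBS and 23.5, 16.4 and 15.1 after frHMGB1. They were 632, 838 and 572 after dsHMGB1, 353, 306 and 218 after LPS, and 115, 113 and 96.0 after LPS/IFNγ. The ranges of dsHMGB1, LPS and LPS/IFNγ were separate in that order, and those of frHMGB1 and PBS overlapped. Of all tested genes, 52.9% had separate dsHMGB1 and LPS ranges and 60.5% separate LPS and LPS/IFNγ ranges. For Kcnh7 this separation is part of the description and no support for a difference. The log2 fold change over PBS was 5.80 ± 0.34 (SE) after dsHMGB1, 4.58 ± 0.34 after LPS and 3.14 ± 0.35 after LPS/IFNγ, and 5.44, 4.22 and 2.77 without PBS replicate 3. dsHMGB1 stood 2.33-fold above LPS (log2 1.22 ± 0.27) and 6.33-fold above LPS/IFNγ (log2 2.66 ± 0.28). A log2 fold change over PBS above 2 was found in 8.43% of all tested genes after dsHMGB1, 10.9% after LPS and 12.1% after LPS/IFNγ. Kcnh7 was the only one of the 7 genes to be highest after dsHMGB1, which is the pattern it was chosen for.

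The 3′ end of Kcnh7 overlaps that of Gca, the gene of the calcium-binding protein grancalcin, which lies on the opposite strand (chr2:62664285-62694109, plus strand). They share 696 exon bases (chr2:62693414-62694109), and the last exon of Kcnh7 runs on for another 9103 bases. Gca had mean normalized counts of 113 ± 41.7 (SD, n = 3) in PBS, 176 ± 16.9 after frHMGB1, 5583 ± 953 after dsHMGB1, 3627 ± 331 after LPS and 1567 ± 49.2 after LPS/IFNγ. Its log2 fold changes over PBS were 5.61 ± 0.22 (adjusted p = 1.39e-09, edgeR), 4.99 ± 0.22 (adjusted p = 2.2e-09) and 3.78 ± 0.22 (adjusted p = 2.09e-08) in the last 3. Gca and Kcnh7 were thus ordered alike over the conditions, and the count of Kcnh7 was 11.6–12.5% of that of Gca after dsHMGB1, 6.68–9.06% after LPS, 6.03–7.46% after LPS/IFNγ, 8.38–14.1% after frHMGB1 and 3.57–12.3% in PBS.

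The library kit keeps the strand of the RNA, but no source used here names the counting program or its strand setting. Of 37 genes with at least 200 exon bases that lie wholly within exons of an opposite-strand gene with at least 50000 counts, 37 had 0 counts, against 40.8% of all 47489 genes of that length in the table. Zero counts there are given both by counting that uses strand and by counting that drops reads shared between genes. Under either setting, Gca reads that lie in the 696 shared bases would not be counted for Kcnh7. If strand was not used, reads of either strand in the further 9103 bases would be counted for Kcnh7. The table alone does not tell the settings apart, and the strand of those reads was not tested, so the Kcnh7 level is uncertain.

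**Figure D4:**
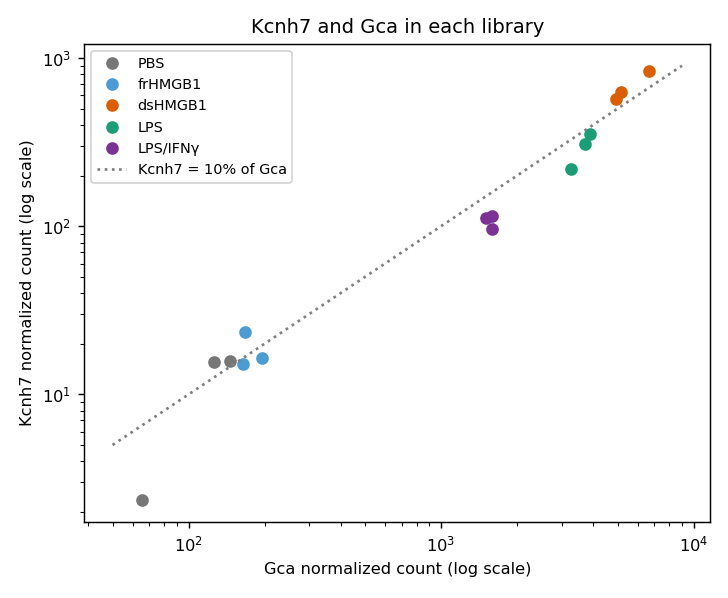
Normalized counts of Kcnh7 (y axis, log scale) against those of Gca (x axis, log scale), 1 point per library coloured by condition, with a dotted line where Kcnh7 equals 10% of Gca. Kcnh7 is higher where Gca is higher, with the dsHMGB1 libraries above the line and the LPS and LPS/IFNγ libraries below it. The PBS and frHMGB1 libraries lie on both sides, from 3.57% of Gca in PBS replicate 3 to 14.1% in frHMGB1 replicate 1.

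Likeness between genes was measured as the root mean square difference of their centred log2 mean profiles over the 5 conditions, among 10656 protein-coding genes with a mean of at least 100 in some condition. For Kcnh7 the nearest were Gca (0.305), the cystine transporter gene Slc7a11 (0.311) and Nxpe3 (0.463). For Kcna3 they were Nt5c1a (0.258), Tnfsf8 (0.330), which encodes the CD30 ligand, and Atp13a4 (0.353). For Kcnn4 they were Ran (0.075), Ifnar1 (0.077), an interferon receptor chain, and Ube2s (0.081). Chek2, Mblac2 and Cbx2 were nearest to Kcnj2 (0.136 to 0.207), and C2cd5, Dffa and Nuak1 to Kcnk6 (0.045 to 0.059). Rgs18, Fance and C2cd2l were nearest to Kcnk13 (0.079 to 0.086), and Fam168a, Pla2g6 and Xpc to Kcnab2 (0.054 to 0.058). Among the 7 genes the closest pair was Kcnk13 and Kcnab2, at 0.235.

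Of 94 other potassium channel genes in the table, 21 passed the filter and 27 had 0 counts in all 15 libraries. After frHMGB1, 0 of the 21 were called by edgeR, with 2 at an unadjusted p under 0.05 and 1 called by DESeq2. Of all tested genes, edgeR called 1.31% higher and 5.69% lower there. After dsHMGB1, 5 were higher and 6 lower, beside 23.3% and 24.2% of all tested genes. After LPS these counts were 4 and 8, beside 26.7% and 36.2%, and after LPS/IFNγ 5 and 8, beside 29.0% and 31.2%. With any 1 library of the groups compared left out, 3 to 5 were lower after dsHMGB1 and 5 to 8 after LPS. The median log2 fold changes were 0.26, -0.33 and -0.57, and without PBS replicate 3 the counts became 6 and 5, 5 and 8, and 6 and 9.

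Among voltage-gated genes, Kcnh4, another member of the ether-à-go-go superfamily, had mean normalized counts of 11.1 ± 9.59 (SD, n = 3) in PBS, 114 ± 24.8 after dsHMGB1, 219 ± 7.28 after LPS and 486 ± 28.7 after LPS/IFNγ. It rose in all 3 (log2 3.21 ± 0.33, 4.14 ± 0.32 and 5.29 ± 0.32; adjusted p = 0.000111, 8.58e-06 and 8.29e-07, edgeR), with LPS/IFNγ again the highest, as for Kcna3. Kcng3, whose product is an electrically silent partner of other pore subunits, had 1 read over the 3 PBS libraries and means of 54.7 ± 7.80 after dsHMGB1, 69.1 ± 6.77 after LPS and 82.2 ± 12.7 after LPS/IFNγ. Kcna7 had 0 reads in PBS and 25, 44 and 10 reads in these conditions. Both genes passed the filter through the conditions in which they were high, so their calls, which are among the counts above, are no support for a difference.

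The inward rectifiers Kcnj10 and Kcnj16, whose products can assemble with each other, fell as Kcnj2 did. Kcnj10 went from 283 ± 92.2 in PBS to 75.6 ± 17.8 after dsHMGB1, 30.0 ± 5.34 after LPS and 22.2 ± 7.71 after LPS/IFNγ (adjusted p = 0.0001, 1.04e-06 and 3.29e-07, edgeR). Kcnj16, which lies at chr11:110968033-111027968 before Kcnj2 on the same chromosome, went from 108 ± 46.5 to 20.8 ± 5.07, 14.3 ± 3.81 and 21.5 ± 4.84 (adjusted p = 0.000163, 3.08e-05 and 0.000124). Kcnj9 held 112 reads in PBS and 19, 25 and 3 reads after dsHMGB1, LPS and LPS/IFNγ (log2 -2.42 ± 0.69, -1.30 ± 0.68 and -4.82 ± 1.03). It passed the filter through the conditions in which it was high. Its calls, which are among the counts above, are therefore no support for a difference.

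The β-subunit genes divided. Kcnab1 rose after dsHMGB1 (log2 1.64 ± 0.29, adjusted p = 0.000372, edgeR) and LPS (log2 2.33 ± 0.29, adjusted p = 1.46e-05), from 45.5 ± 17.0 in PBS to 138 ± 21.8 and 223 ± 43.3, and stood at 58.1 ± 10.9 after LPS/IFNγ (adjusted p = 0.296). LPS/IFNγ was below LPS (log2 -1.94 ± 0.29, adjusted p = 0.000254). Kcnab3 was lower, as Kcnab2 was, with 26.4 ± 14.8 in PBS and 10.2 ± 2.48, 5.13 ± 1.91 and 5.84 ± 2.87 after dsHMGB1, LPS and LPS/IFNγ. The accessory subunit gene Kcne3 was lower as well (log2 -2.10 ± 0.80, -2.93 ± 0.88 and -4.67 ± 1.04). Kcnab3 held 94 reads in PBS and 38, 11 and 17 in these conditions, and Kcne3 128 and 30, 10 and 4. Both genes passed the filter through the conditions in which they were high. Their calls, which are among the counts above, are therefore no support for a difference. Kcnab1, Kcnj9, Kcnab3 and Kcne3 share between 9 and 201 exon bases with opposite-strand genes, and the effect of this overlap on their low counts was not tested.

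**Figure D5:**
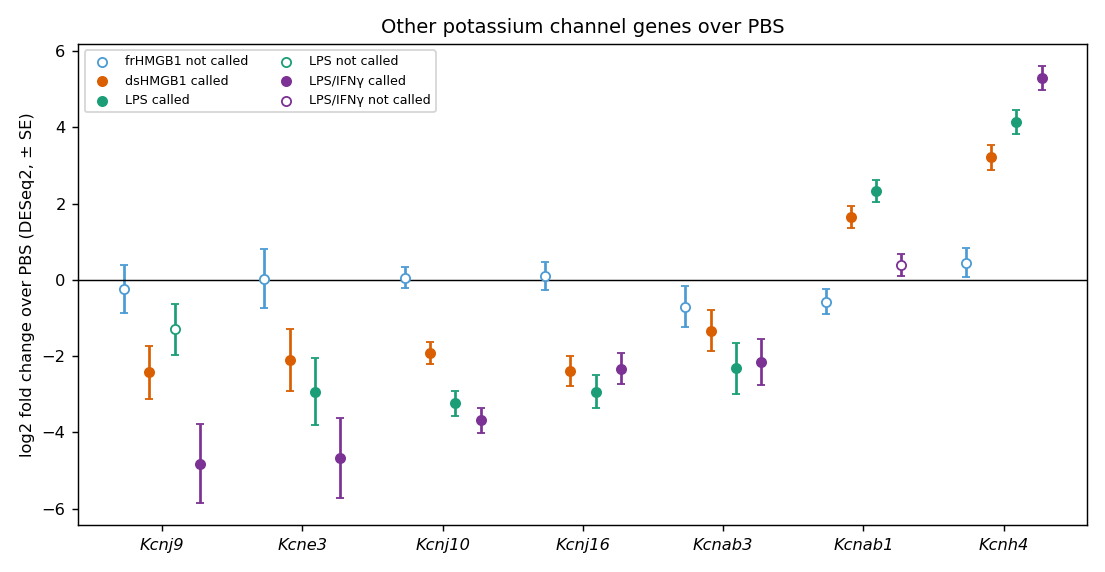
Log2 fold change over PBS (y axis, ± SE, 3 libraries a condition) of 7 other potassium channel genes (x axis), coloured by condition, with filled points for calls at an adjusted p under 0.05 and open points for the rest. Kcna7 and Kcng3 are left out because PBS held 0 and 1 of their reads. The calls of Kcnj9, Kcnab3 and Kcne3 are no support for a difference, because these genes passed the filter through the conditions in which they were high. Kcnh4 lies above 0 after the 3 inflammatory stimuli, and Kcnj10 and Kcnj16 lie below it.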

How the data were processed

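According to the study's methods and the labels, the authors sequenced stranded mRNA libraries on a NextSeq 2000 with paired ends, demultiplexed with CASAVA, aligned with STAR to GRCm38 and fitted DESeq2, calling genes by log2 fold change alone. They deposited 1 table of raw counts per Ensembl gene; 0 of its columns lacked a sample. No source used here names the counting program or annotation. Symbols, positions and exon lengths came from GENCODE M21 (51661 of 51763 identifiers matched).

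Counts were filtered with filterByExpr (minimum count 10, total 15) and tested in edgeR 4.0.16 (quasi-likelihood F test, TMM, all 15 libraries, 8 comparisons, Benjamini-Hochberg threshold 0.05). Normalized counts, log2 fold changes and SE came from DESeq2 1.42.0 without shrinkage. The fit was tested on simulated data. The members and lists (94 other potassium channel genes, 35 other ion transport genes, cell markers) were chosen with earlier results of these data known. Named beyond the members were channel genes with a mean of at least 100, or called with an absolute log2 fold change over 2 and a mean of at least 20; ion transport genes called with one over 1 and a mean of at least 100; and the 3 nearest profiles per member. Some genes that this rule names are not reported here.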

Additional observations from a re-analysis of the deposited data

How the results depend on the processing

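Over 288 values of the 6 tested members with 1 library left out, 275 kept their direction and call, as did 330 of 336 under the other alternatives; the log2 values of Kcnh7 ran from 5.44 to 6.06 for dsHMGB1 against PBS and from 1.04 to 1.37 against LPS. With 1 library left out, log2 values ran from 1.48 to 1.90 for Kcna3 in LPS/IFNγ against LPS, from -0.02 to 0.33 for Kcnn4, -0.07 to 0.54 for Kcnj2 and -0.06 to 0.06 for Kcnab2 in frHMGB1 against PBS, and for Kcnk6 from -0.72 to -0.29 in dsHMGB1 against PBS, -0.76 to -0.66 against frHMGB1 and 0.69 to 0.80 against LPS. Kcnab2 in frHMGB1 against PBS, 0.01 in the main fit, was -0.01 with a filter of at least 1 CPM in 3 libraries, -0.07 with protein-coding genes alone and -0.02 with only the groups compared. Fitting only those groups brought 3 values past the threshold: Kcnj2 (0.33) and Kcnk6 (0.26) in LPS/IFNγ against LPS, and Kcnk6 in dsHMGB1 against LPS/IFNγ (0.51). The causes were not tested.

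The counts of other potassium channel genes called also moved. With 1 library left out, the counts called lower ran from 3 to 5 (dsHMGB1 against PBS), 5 to 8 (LPS against PBS), 3 to 5 (dsHMGB1 against frHMGB1), 1 to 2 (dsHMGB1 against LPS/IFNγ), 1 to 3 (LPS/IFNγ against LPS) and 0 to 1 (frHMGB1 against PBS). The counts called higher ran from 0 to 1 (frHMGB1 against PBS), 1 to 2 (dsHMGB1 against LPS), 2 to 3 (dsHMGB1 against LPS/IFNγ) and 0 to 1 (LPS/IFNγ against LPS). With the 1 CPM filter, which leaves fewer genes, dsHMGB1 gave 3 higher and 2 lower against PBS, LPS 2 lower, LPS/IFNγ 2 and 2, dsHMGB1 against frHMGB1 3 and 2, dsHMGB1 against LPS/IFNγ 1 lower, and LPS/IFNγ against LPS 1 and 1. With only the groups compared, counts were 3 higher for dsHMGB1, 4 lower for LPS and 3 higher for LPS/IFNγ, all against PBS, and 3 lower for dsHMGB1 against LPS. Without a filter, dsHMGB1 against LPS/IFNγ gave 2 higher and 1 lower, and with RLE size factors LPS/IFNγ against LPS gave 1 higher. DESeq2 called 1 lower for frHMGB1 and 3 lower for dsHMGB1 against LPS. A log2 fold change over 2 without p gave 1 higher and 1 lower for frHMGB1, 2 higher and 1 lower for dsHMGB1 against LPS, and 2 higher for dsHMGB1 against LPS/IFNγ.

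The replicate numbers did not pair the libraries: 1 of 30 same-numbered pairs deviated together at r over 0.1 (range -0.386 to 0.375). With the replicate number as a block, 1 gene was called lower in dsHMGB1 against LPS/IFNγ in place of 2, and 1 higher in LPS/IFNγ against LPS in place of 2.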

Other observations

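Genes that move other ions across the membrane were followed as context. Of 35 such genes, 32 passed the filter, and 1 was called higher after frHMGB1, 11 higher and 5 lower after dsHMGB1, 14 and 6 after LPS, and 15 and 7 after LPS/IFNγ (edgeR, adjusted p under 0.05). Of all tested genes, 1.31% were called higher and 5.69% lower after frHMGB1, 23.3% and 24.2% after dsHMGB1, 26.7% and 36.2% after LPS, and 29.0% and 31.2% after LPS/IFNγ. The median log2 fold changes were 0.08, 0.55, 0.80 and 0.98. Without PBS replicate 3 the counts were 2 higher and 3 lower after frHMGB1, 15 and 8 after dsHMGB1, 16 and 8 after LPS, and 16 and 8 after LPS/IFNγ.

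The potassium-chloride cotransporter gene Slc12a4 held 3989 ± 172 normalized counts (SD, n = 3) at rest and rose to 12276 ± 449 after dsHMGB1, 16388 ± 747 after LPS and 8592 ± 125 after LPS/IFNγ. Slc12a7, of the same family, was at 1480 ± 551 in PBS and 2184 ± 165 after dsHMGB1 (not called). It rose to 4686 ± 457 after LPS and 7546 ± 181 after LPS/IFNγ. Slc12a2, a cotransporter that takes up sodium, potassium and chloride, rose from 700.1 ± 165 to 8280 ± 254 after LPS/IFNγ (log2 3.56 ± 0.17, adjusted p = 1.82e-09, edgeR). It was at log2 0.91 ± 0.17 after LPS (adjusted p = 0.000848) and 0.16 ± 0.17 after dsHMGB1 (adjusted p = 0.523). Among calcium-entry genes, Orai2 rose 3.14 ± 0.12 on the log2 scale after dsHMGB1, 3.75 ± 0.12 after LPS and 2.04 ± 0.12 after LPS/IFNγ. In the same order Stim2 rose 1.29 ± 0.10, 1.66 ± 0.10 and 1.57 ± 0.10, while Orai3 fell, with log2 values of -0.78, -1.34 and -1.13. The volume-regulated anion channel gene Lrrc8c rose 3.21 ± 0.24 after dsHMGB1, 3.22 ± 0.24 after LPS and 2.21 ± 0.24 after LPS/IFNγ. Lrrc8b rose 1.37 ± 0.23, 1.20 ± 0.23 and 1.18 ± 0.23. The lysosomal chloride-proton exchanger gene Clcn7 rose 1.75 ± 0.11, 1.62 ± 0.11 and 1.84 ± 0.11 in the 3 inflammatory conditions. Clcn3 was at -0.02 ± 0.33 after dsHMGB1 (not called) and fell after LPS (-0.78 ± 0.33) and LPS/IFNγ (-1.06 ± 0.33). Trpm4, a calcium-activated cation channel gene, rose 1.21 ± 0.15 after dsHMGB1, 1.70 ± 0.15 after LPS and 1.02 ± 0.15 after LPS/IFNγ. Trpv4 fell in these conditions, with log2 values of -0.91, -1.21 and -1.42. The lipid scramblase gene Ano6 was at 0.60 ± 0.24 after dsHMGB1 (not called). It rose 0.87 ± 0.24 after LPS and 1.60 ± 0.24 after LPS/IFNγ. Slc12a4 and Ano6 share 361 and 336 exon bases with opposite-strand genes.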
